A study of Rattus norvegicus with 8 samples.

Results

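The genes described here are those of the growth hormone receptor and the insulin-like growth factor (IGF) axis in whole left kidneys of rats kept on a silicon (Si) deplete or a Si replete diet. The members were 10 genes, namely Ghr, Igf1, Igf1r, Igf2r, Igfbp1, Igfbp3, Igfbp4, Igfbp5, Igfals and Socs2, and every probe set whose only gene symbol in the platform annotation was one of them was kept, which gave 20 of the 31042 probe sets tested. They were chosen by name around Ghr, and Ghr was selected on its own measured difference between the diets in these same kidneys. The differences between diets are therefore given as a description, with their errors. Counts of limma calls among the members are given beside the share over all probe sets, and are no test of the members.

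Growth hormone from the pituitary binds its receptor on the cell surface, and the receptor signals through the kinase JAK2 and the transcription factors STAT5A and STAT5B. Among the genes it induces is Igf1, a secreted growth factor that circulates mostly from the liver but is also made in the kidney. IGF binding proteins hold the factor in blood and tissue, the acid-labile subunit encoded by Igfals stabilizes the circulating complex, and the receptor encoded by Igf1r passes the signal on through insulin receptor substrates, PI3K and AKT. In the kidney, growth hormone and IGF1 are known for raising glomerular filtration, for kidney growth and for retention of phosphate by the proximal tubule.

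The kidneys came from female Sprague-Dawley rats aged 29 weeks, which had eaten a formulated low-Si feed for 26 weeks. The Si deplete group (4 rats) drank low-Si water and took in 0.17 mg of Si daily per kg of body weight, whereas the Si replete group (4 rats) drank water with added orthosilicic acid and took in 4.1 mg. Both groups ate the same feed, and each array held RNA of the left kidney of 1 rat. Values are log2 levels of probe sets, where a difference of 1 is a doubling, and the level of one probe set cannot be set against that of another. Kidney values are listed in the order of the replicate numbers, 1 to 4, which were not read as pairs.

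The lowest correlation between arrays of one diet was 0.989, and Si deplete replicate 1 stood apart from the others on the first principal component (42.1% of the variance), at 64.0 against -25.9 to 19.2. On this component the other Si deplete arrays lay at -1.9 to 19.2 and the Si replete arrays at -25.9 to -18.8, so the diets did not overlap. Markers listed for kidney cell types were present: all 10 markers of the proximal tubule, all 7 of the collecting duct and all 5 measured markers of podocytes had mean log2 levels of 4 or more. Those of adrenal cortex were all under 4, as were 5 of 7 hepatocyte markers, including Alb at 2.46. On the brightest probe set of each gene, no marker of the 12 lists passed the limma threshold. The injured tubule marker Cd44 passed on another probe set (1.82, limma adjusted p = 0.0864), and not on its brightest (1.17, adjusted p = 0.125). Injured tubule markers had higher means in Si deplete kidneys for 8 of 9 genes, and their summed linear level was 22346 to 48959 in Si deplete against 10639 to 16833 in Si replete kidneys, without overlap. Krt20 was the one under 4 on that list.

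The start regions of the receptor Ghr, its target Igf1 and the binding proteins Igfbp5 and Igfbp1 are shown. The first 3 had lower means in Si deplete kidneys on every probe set, as did Igfbp3 and Igfals, which are not printed, and Igfbp1 had a higher one. Each window holds 250 bases before and 50 after the annotated start, from RefSeq on the build GRCr8, read 5′ to 3′ on the strand of the gene. The windows lie at chr2:54432026-54432325 (minus strand) for Ghr, chr7:24172282-24172581 (plus strand) for Igf1, chr9:81914138-81914437 (minus strand) for Igfbp5 and chr14:86261027-86261326 (plus strand) for Igfbp1. Capitals mark CAAAACA, the core of the insulin response element, on either strand.
Ghr: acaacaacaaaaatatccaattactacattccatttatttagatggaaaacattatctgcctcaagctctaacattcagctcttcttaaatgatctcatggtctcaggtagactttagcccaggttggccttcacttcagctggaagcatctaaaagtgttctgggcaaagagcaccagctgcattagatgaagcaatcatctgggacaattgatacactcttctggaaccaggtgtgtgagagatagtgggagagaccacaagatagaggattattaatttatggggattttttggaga
Igf1: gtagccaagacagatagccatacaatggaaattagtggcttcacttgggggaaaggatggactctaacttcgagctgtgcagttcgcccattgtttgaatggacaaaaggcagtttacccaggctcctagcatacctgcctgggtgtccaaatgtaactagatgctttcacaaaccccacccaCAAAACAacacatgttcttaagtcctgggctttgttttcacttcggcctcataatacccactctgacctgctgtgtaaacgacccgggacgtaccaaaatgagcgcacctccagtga
Igfbp5: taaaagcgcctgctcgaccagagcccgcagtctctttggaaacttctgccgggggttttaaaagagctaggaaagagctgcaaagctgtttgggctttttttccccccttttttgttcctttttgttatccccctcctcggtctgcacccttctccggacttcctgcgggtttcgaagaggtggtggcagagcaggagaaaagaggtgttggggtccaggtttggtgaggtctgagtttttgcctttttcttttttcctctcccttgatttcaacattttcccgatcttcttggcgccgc
Igfbp1: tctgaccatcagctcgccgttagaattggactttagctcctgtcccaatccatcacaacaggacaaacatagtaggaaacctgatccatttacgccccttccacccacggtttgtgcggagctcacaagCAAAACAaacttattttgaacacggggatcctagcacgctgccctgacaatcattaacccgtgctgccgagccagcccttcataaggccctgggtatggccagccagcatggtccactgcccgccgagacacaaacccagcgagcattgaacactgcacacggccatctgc

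Of the 10 members, 9 had a window in the table, and Socs2 had none. CAAAACA was found in Igf1, with its first base 67 bases before the start, and in Igfbp1, 121 bases before it, and in 6.28% of 33469 windows of this length. The letters TTCNNNGAA, a consensus for STAT5, occurred in none of the 9 windows and in 8.87% of all, and GTAAACA, a consensus for FOXO factors, in none of the 9 and in 3.78% of all. A search for exact letters cannot show that a window lacks sites for STAT5 or FOXO, CAAAACA included. TATAAA was found only in Igfbp4, 40 bases before the start, and in 14.2% of all windows. These motifs were searched on both strands and do not overlap one another in the windows shown. The share of G and C was 40.0% in Ghr, 48.3% in Igf1, 50.7% in Igfbp5 and 54.0% in Igfbp1, against 78.0% in Igf1r. Ghr is known to have more than one start, and which one these kidneys used was not measured.

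Ghr encodes the growth hormone receptor. On its brighter probe set (1373803_a_at) its log2 level was 8.76, 9.06, 8.99 and 9.23 in the Si deplete and 9.67, 9.87, 9.93 and 9.90 in the Si replete kidneys. The highest Si deplete kidney lay below the lowest Si replete kidney. The means were 9.01 ± 0.19 (SD, n = 4) and 9.84 ± 0.12 (SD, n = 4), a difference of -0.83 (standard error 0.11), or 1.78-fold lower in Si deplete kidneys.

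The other probe set of Ghr (1368924_at) read 6.22, 7.11, 7.19 and 7.73 in Si deplete and 8.04, 8.11, 8.06 and 7.92 in Si replete kidneys. The groups did not overlap here either, and Si deplete replicate 1 was the lowest on both probe sets and replicate 4 the highest of its group. The difference was -0.97 (standard error 0.26), with an SD of 0.63 in Si deplete against 0.08 in Si replete kidneys. Without Si deplete replicate 1, the differences were -0.75 on the brighter and -0.69 on the other probe set. Beside these values, the summed linear level of proximal tubule markers ranged from 26311 to 42123 under the deplete diet and from 37889 to 43770 under the replete one, 8 of 10 markers having lower means, and the injured tubule markers were higher as given above. The part of either in the difference of Ghr was not tested, and in whole kidney RNA fewer cells of a type and less RNA per cell cannot be told apart.

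**Figure D1:**
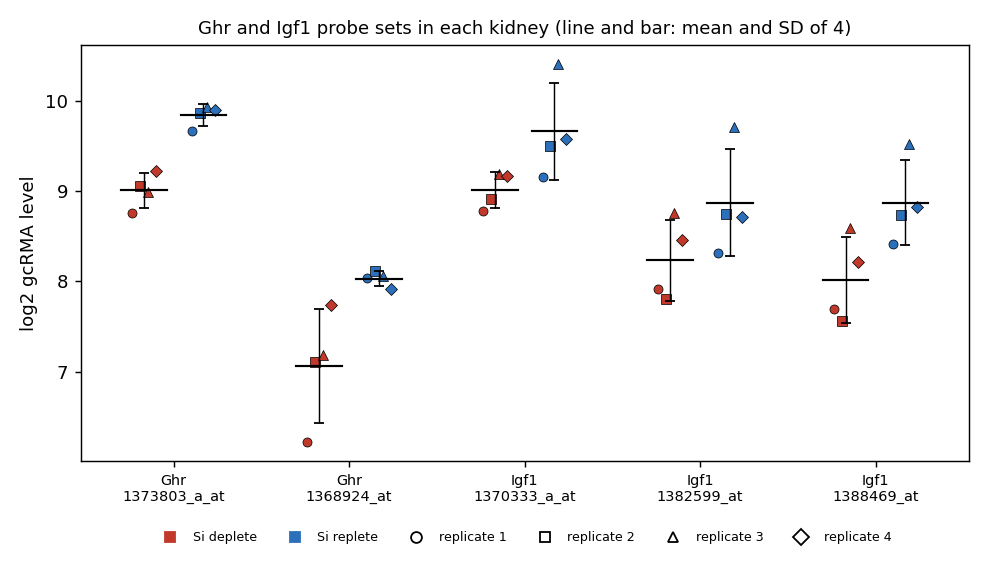
Log2 gcRMA level (vertical axis) of the 2 Ghr and 3 Igf1 probe sets (horizontal axis) in each kidney, red for Si deplete and blue for Si replete, with a marker shape for each replicate number; lines mark the mean of 4 rats and bars their SD. Both Ghr probe sets show no overlap between diets, whereas on each Igf1 probe set the Si deplete kidneys lie lower on average and overlap the Si replete ones.

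Igf1, the ligand whose production growth hormone stimulates, had 3 probe sets. The brightest (1370333_a_at) read 8.78, 8.92, 9.19 and 9.17 in the Si deplete and 9.15, 9.50, 10.41 and 9.57 in the Si replete kidneys. Si replete replicate 3 was the highest kidney, and Si replete replicate 1 lay just under Si deplete replicates 3 and 4, so the groups overlapped. The means were 9.01 ± 0.20 (SD, n = 4) and 9.66 ± 0.53 (SD, n = 4), a difference of -0.65 (standard error 0.24).

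The second Igf1 probe set (1382599_at) read 7.92, 7.81, 8.76 and 8.46 in Si deplete and 8.31, 8.75, 9.71 and 8.72 in Si replete kidneys. The third (1388469_at) read 7.70, 7.57, 8.59 and 8.22 in Si deplete and 8.41, 8.73, 9.52 and 8.82 in Si replete kidneys. On both, Si deplete replicates 1 and 2 were the lowest kidneys and Si replete replicate 3 the highest. Their differences were -0.64 (standard error 0.31) and -0.85 (standard error 0.28), and the 95% interval of the former, -1.33 to 0.06, reached zero. Without Si replete replicate 3 the differences were -0.40, -0.36 and -0.64 on the 3 probe sets.

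The IGF receptors had higher means in Si deplete kidneys on all 4 probe sets. Igf1r encodes the tyrosine kinase that carries the IGF1 signal. On the probe set 1368123_at it read 8.67, 8.59, 8.64 and 8.73 in Si deplete and 8.52, 8.29, 8.41 and 8.30 in Si replete kidneys. These values did not overlap, and they differed by 0.28 (standard error 0.08), or 1.21-fold. The brighter probe set of Igf1r (1392492_at) read 8.43, 8.60, 8.90 and 8.83 against 8.68, 8.52, 8.69 and 8.52, which overlapped and differed by 0.09 (standard error 0.11, 95% interval -0.17 to 0.34). The groups separated on one probe set of Igf1r and not on the other.

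Igf2r, the mannose 6-phosphate receptor that takes up IGF2 and lysosomal enzymes, read 11.04, 11.10, 10.64 and 10.45 in Si deplete and 10.26, 10.60, 9.83 and 10.95 in Si replete kidneys on its brighter probe set (1386872_at). The groups overlapped, with Si replete replicate 3 the lowest kidney. The difference was 0.40 (standard error 0.24), and it was 0.33 (standard error 0.24) on the other probe set (1367636_at), where Si replete replicate 3 was again the lowest, at 9.49. Without that kidney the differences were 0.21 and 0.13.

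**Figure D2:**
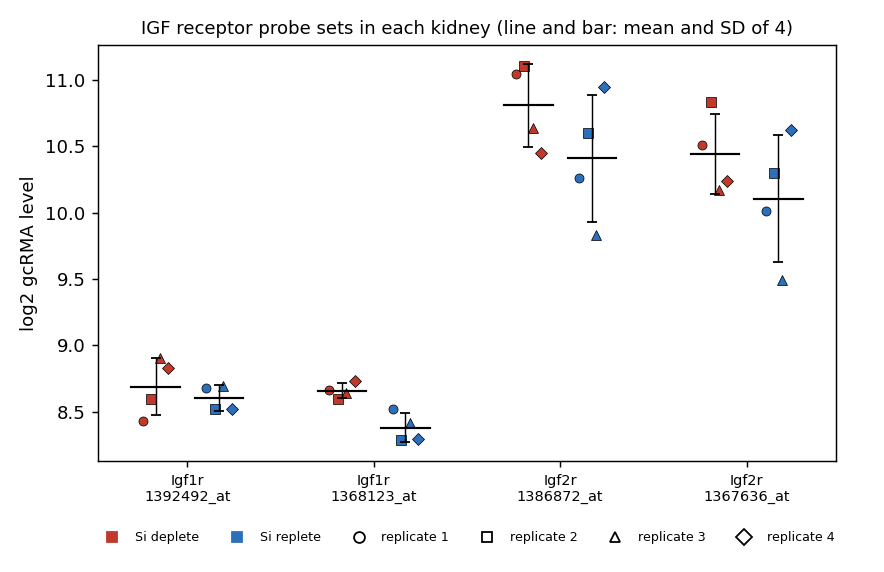
Log2 gcRMA level (vertical axis) of the 4 probe sets of the IGF receptors (horizontal axis) in each kidney, red for Si deplete and blue for Si replete, with a marker shape for each replicate number; lines mark the mean of 4 rats and bars their SD. Only the Igf1r probe set 1368123_at separates the diets, by 0.28.

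The binding proteins shared no direction. Igfbp5, which binds IGF in extracellular matrix, had 5 probe sets, all with lower means in Si deplete kidneys, and 2 of them (1396152_s_at and 1397830_at) come from the same sequence record. The brightest (1370960_at) read 10.88, 11.29, 11.39 and 11.38 in Si deplete and 11.46, 11.34, 11.72 and 11.48 in Si replete kidneys, a difference of -0.27 (standard error 0.13). Here the groups overlapped, and without Si deplete replicate 1, the lowest kidney, the difference was -0.15.

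On 3 dimmer Igfbp5 probe sets, 1387348_at, 1397830_at and 1387347_at, the groups did not overlap and the differences were -0.54 (standard error 0.15), -0.64 (standard error 0.20) and -0.64 (standard error 0.14). Without Si deplete replicate 1 that of 1397830_at was -0.41. On 1387347_at the values were 4.88, 5.23, 5.07 and 5.02 in Si deplete and 6.05, 5.42, 5.65 and 5.64 in Si replete kidneys. On the fifth, 1396152_s_at, Si deplete replicate 1 read 5.72 while the other Si deplete kidneys read 7.07 to 7.17, and the difference of -0.52 became -0.16 without it. The probe sets of Igfbp5 shared a direction but not a size.

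Igfbp3, the main carrier of IGF1 in blood, differed between kidneys of one diet more than between diets. On its brighter probe set (1367652_at) the Si deplete kidneys read 7.57, 9.14, 7.94 and 9.52, and the Si replete kidneys read 9.02, 8.86, 8.99 and 8.75. Si deplete replicates 1 and 3 lay below every Si replete kidney, and replicates 2 and 4 lay above every one. The SD was 0.93 in Si deplete and 0.12 in Si replete kidneys, and the difference of the means was -0.36 (standard error 0.39). The other probe set (1386881_at) gave 7.08, 8.67, 7.37 and 8.86 against 8.72, 8.53, 8.67 and 8.46, with SDs of 0.90 and 0.12. There replicates 1 and 3 were again below every Si replete kidney, replicate 4 was above every one, and replicate 2 lay within their range. In the same 4 Si deplete kidneys, the mean log2 level of the podocyte markers relative to all arrays was -0.30, 0.05, -0.79 and 0.13, and that of fibroblast and mural markers was -0.02, 0.45, -0.23 and 0.78, so both were lower in replicates 1 and 3 than in 2 and 4. The same held for 5 of the 12 marker lists, the others being the adipocyte, hepatocyte and macrophage and myeloid lists, and not for endothelium. All 5 measured podocyte markers were lower and 8 of 10 fibroblast and mural markers were higher in Si deplete kidneys, with summed linear levels of 1417 to 2382 against 2047 to 2872 and of 4619 to 9614 against 4250 to 5764, and no marker of either list had a mean under 4. Without Si deplete replicate 1 the differences of Igfbp3 were -0.04 and -0.29. The part of any of these markers in the spread of Igfbp3 was not tested.

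Igfbp1, an insulin-repressed binding protein, read 11.67, 10.95, 10.21 and 11.13 in Si deplete and 10.66, 10.35, 10.90 and 10.17 in Si replete kidneys (1368160_at). The groups overlapped and differed by 0.47 (standard error 0.28, 95% interval -0.17 to 1.11). The difference was 0.25 without Si deplete replicate 1 and 0.73 without Si deplete replicate 3, the highest and the lowest of their group. Igfbp1 neighbours Igfbp3 among the protein-coding genes of chromosome 14 in RefSeq, and Si deplete replicate 1 had the highest Igfbp1 and the lowest Igfbp3 of the 8 kidneys.

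Igfbp4, a binding protein that restrains IGF until it is cleaved, read 8.59, 8.11, 7.69 and 8.09 in Si deplete and 8.10, 7.74, 8.27 and 8.34 in Si replete kidneys (1371462_at). The difference was 0.01 (standard error 0.19, 95% interval -0.43 to 0.44), and it was -0.05 once each array's median was subtracted. Igfals, the acid-labile subunit made mainly in liver, read 6.22, 7.47, 7.21 and 6.41 in Si deplete and 6.89, 6.60, 6.67 and 8.38 in Si replete kidneys (1387816_at). Its difference was -0.31 (standard error 0.42) and went to 0.11 without Si replete replicate 4, the kidney at 8.38, and to -0.11 without Si deplete replicate 1.

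**Figure D3:**
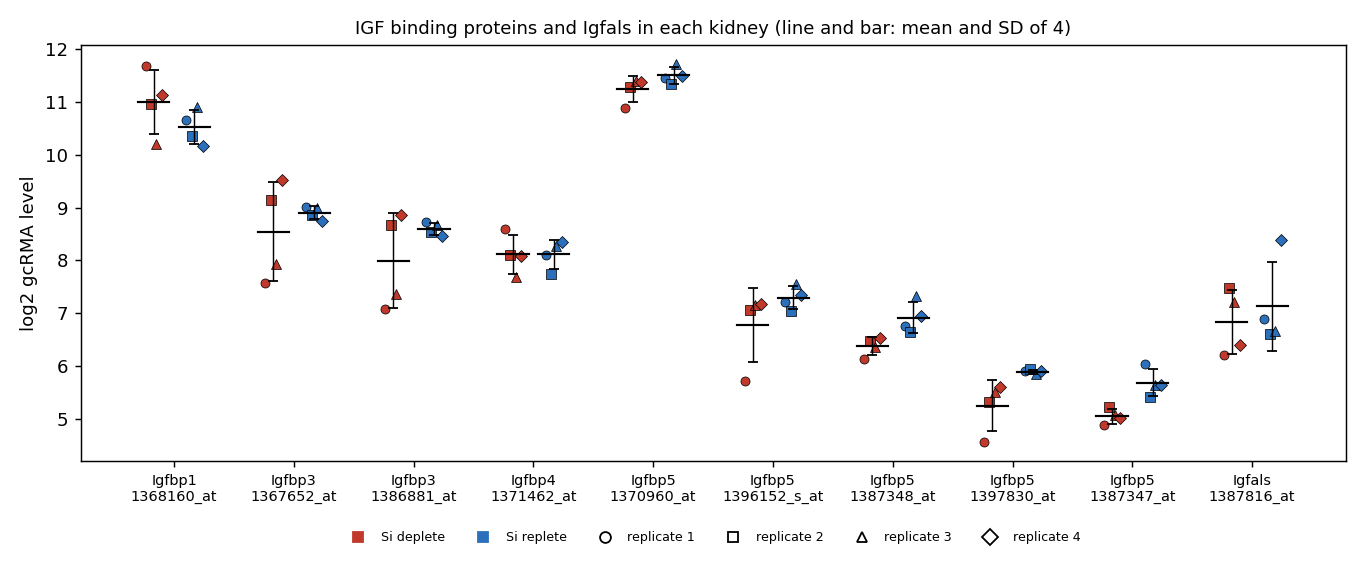
Log2 gcRMA level (vertical axis) of the 10 probe sets of the IGF binding proteins and Igfals (horizontal axis) in each kidney, red for Si deplete and blue for Si replete, with a marker shape for each replicate number; lines mark the mean of 4 rats and bars their SD. The Igfbp3 values of Si deplete kidneys fall into a lower and a higher pair on both probe sets, and Igfals of Si replete replicate 4 lies apart at 8.38.

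Socs2, a feedback inhibitor of the growth hormone receptor that STAT5 induces, lay near the lower end of the scale. It read 2.94, 3.19, 2.80 and 2.74 in Si deplete and 3.17, 2.78, 2.70 and 2.76 in Si replete kidneys (1369577_at), a difference of 0.07 (standard error 0.13). It was the only member whose probe set had a mean under 4, where changes are compressed, and no member was left out by a filter.

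Over the 20 probe sets, 13 had lower and 7 had higher means in Si deplete kidneys, with a median difference of -0.44, against -0.01 over all 31042. Their spread runs from Ghr at -0.97 to Igfbp1 at 0.47. The kidneys of the diets did not overlap on 6 of the 20, which belong to Ghr, Igf1r and Igfbp5, whereas 9.37% of all probe sets did not overlap. By limma with an adjusted p under 0.1, 1 of the 20 was called lower, the brighter probe set of Ghr, and none was called higher, where 0.0387% of all probe sets were called lower and 0.113% higher. At an unadjusted p under 0.05, 7 were lower, both Ghr probe sets among them, and 1 was higher, where 7.14% of all probe sets were lower and 7.81% higher. This count repeats the value for which Ghr was picked. The call of Ghr was lost at a threshold of 0.05, and when Si deplete replicate 2 or 4 or any Si replete kidney was left out, which gave a count of 0. With those kidneys left out singly, 0 to 3 of all probe sets were called lower and 0 to 11 higher, against 12 and 35 with all kidneys. The difference of Ghr was -0.90 to -0.80 in these runs. With 1 probe set per gene, the one with the highest mean, 5 of the 10 members were lower and 5 higher, and their median difference was -0.13 against 0.00013 over 14217 genes. On these probe sets the diets did not overlap for 1 of the 10 members, Ghr itself, and for 1698 of the 14217 genes. Igfbp5 with 5 and Igf1 with 3 probe sets weigh more in the counts over probe sets.

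**Figure D4:**
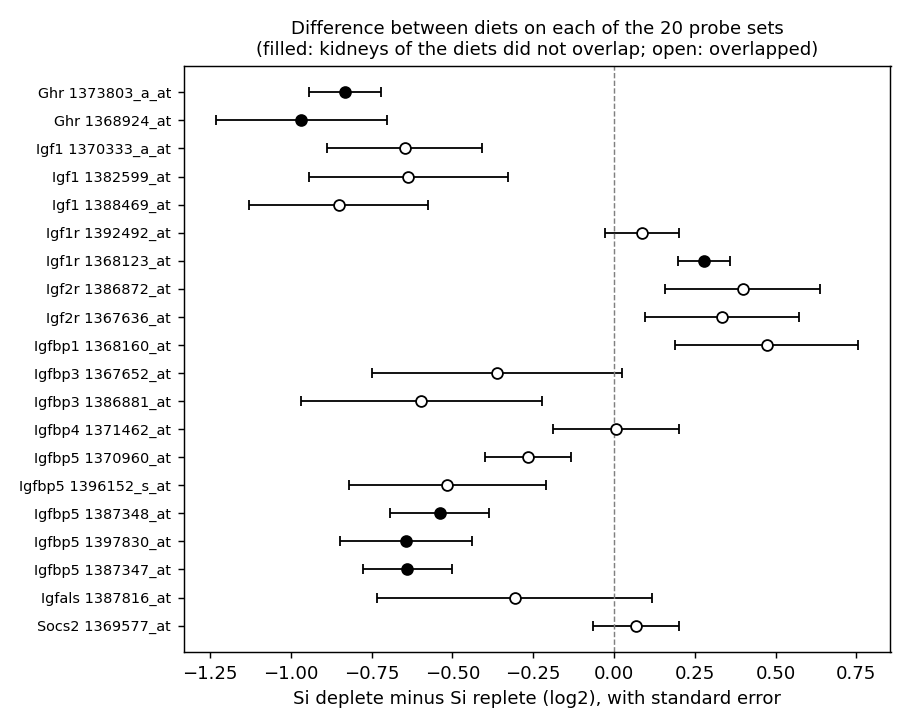
Difference between diets (horizontal axis, Si deplete minus Si replete on the log2 scale) with its limma standard error on each of the 20 probe sets (vertical axis); filled points are probe sets whose kidneys did not overlap between diets. Ghr, Igf1 and Igfbp5 lie left of zero on every probe set, and Igf1r, Igf2r and Igfbp1 lie right of it.

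Ghr was then set against the other members within each kidney, as the log2 level of its brighter probe set minus that of each other gene's brightest. This balance was lower in Si deplete kidneys for all 9. Its difference between diets is that of Ghr (-0.83), for which Ghr was picked, minus that of the other gene. The lowest of the other genes was Igf1, at -0.65, so the sign was set beforehand for all 9. Ghr alone did not overlap between the diets, so a balance without overlap is no separate result. It was -1.30 (standard error 0.39) against Igfbp1, -1.23 (standard error 0.34) against Igf2r, -0.92 (standard error 0.12) against Igf1r, -0.90 (standard error 0.23) against Socs2, -0.84 (standard error 0.28) against Igfbp4 and -0.57 (standard error 0.10) against Igfbp5, and on each of these 6 no Si deplete kidney reached a Si replete one. Against Igf1 it was -0.18 (standard error 0.23), against Igfbp3 -0.47 (standard error 0.40) and against Igfals -0.52 (standard error 0.51), with overlap between the groups. Against Igf1 the kidneys read -0.10, 0.05, -0.29 and -0.03 in the Si deplete and 0.42, 0.28, -0.57 and 0.23 in the Si replete group, each relative to the mean of all 8, and Si replete replicate 3 was the lowest. Against Igf1r they read -0.45, -0.32, -0.69 and -0.38 in the Si deplete and 0.21, 0.57, 0.46 and 0.60 in the Si replete group. The balance with Igf1r separated the diets, as Ghr alone did, and that with Igf1 did not. On the Igf1 probe set 1388469_at the difference between diets was -0.85, beyond the -0.83 of Ghr, so the sign against Igf1 rests on the probe set used. The standard errors of the balances come from the SDs of the groups and not from limma.

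The genes whose levels across the 8 kidneys ran closest to Ghr were found among 9488 genes with a mean level of at least 4, by the root mean square difference of log2 levels centred on each gene's mean. They were Hoxa3l1 (0.11), Fndc10 (0.14), Gemin6 (0.14), Cklf (0.16) and Kcnab1 (0.16), with differences between diets of -0.66, -0.69, -0.65, -0.76 and -0.72. Hoxa3l1 read 9.15, 9.45, 9.48 and 9.57 in the Si deplete and 10.01, 9.98, 10.16 and 10.12 in the Si replete kidneys, with Si deplete replicate 1 the lowest and replicate 4 the highest of its group, as for Ghr. Of the members, Igf1 (0.30) and Igfbp5 (0.31) came nearest, in places 362 and 450, and Igfbp1 (0.81) was the farthest, in place 9032, while Socs2 was under the level of 4 and had no place. A measure of this kind takes in the difference between diets as well as the spread within them.

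Of other genes of the pathway, 87 of 95 listed were measured, and none passed the limma threshold in either direction, where 0.0352% of 14217 genes passed as lower and 0.169% as higher. Each gene was read on its brightest probe set only, and its dimmer probe sets can differ in direction. At an unadjusted p under 0.05, 16 were higher and 6 lower, or 25.3%, against 18.5% of all genes (1499 of 14217 higher and 1130 lower). Their median difference was 0.04.

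Among 20 genes of growth hormone receptor signalling, 8 (40%) had an unadjusted p under 0.05, all with higher means in Si deplete kidneys. Over all genes, 1499 of 14217 were higher at this p and 1130 lower. The median difference of the list was 0.23. The smallest p-values were those of the kinase Src (0.42, standard error 0.11, limma adjusted p = 0.176), the feedback inhibitor Socs3 (1.01, standard error 0.29, adjusted p = 0.207), the transcription factor Stat3 (0.48, standard error 0.14, adjusted p = 0.209) and Adam17, the protease that sheds the receptor's outer part (0.24, standard error 0.07, adjusted p = 0.219). Socs3 was dim, with means of 3.57 and 2.56. The other 4 were the phosphatases Ptpn6 and Ptpn1, the kinase Lyn and the adaptor Shc1, and Ptpn6 and Lyn are known to be abundant in leukocytes. Macrophage and myeloid markers had higher means in Si deplete kidneys for 8 of 9 genes, 3 of them under 4, with summed linear levels of 3658 to 5619 against 2320 to 4321, and lymphocyte markers for all 6 measured, 5 of them under 4, with 52.7 to 121 against 45.9 to 57.8. The part of these cells in the shift of the list was not tested. The receptor's own kinase and targets were looked up for their role, outside the rule for named genes. Jak2 differed by -0.40 (standard error 0.18, limma adjusted p = 0.349), with 7.15, 6.95, 6.98 and 7.46 in Si deplete and 7.61, 7.22, 8.01 and 7.30 in Si replete kidneys. Stat5a and Stat5b lay under 4 and differed by 0.05 and -0.07. Cish, which like Socs2 is induced through STAT5, was well above the low end of the scale, at 8.16 ± 0.31 (SD, n = 4) and 8.12 ± 0.57 (SD, n = 4), with a difference of 0.03 and a 95% interval of -0.57 to 0.64.

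Of the growth hormone and prolactin ligands and related receptors, 9 of 11 had means under 4, among them Gh1 (2.51 and 2.57), and Ghrl (-0.20), Ghrhr (-0.18), the prolactin receptor Prlr (0.38, standard error 0.29) and the leptin receptor Lepr (-0.37, standard error 0.40) had the smallest p-values (limma, adjusted p of 0.33 to 0.702). The IGF genes outside the members had a median difference of -0.23, and 4 of the 10 had means under 4. Among these 10, the binding protein Igfbp2 read 7.48, 7.43, 6.44 and 7.24 in Si deplete and 7.49, 7.94, 7.76 and 7.57 in Si replete kidneys, without overlap and with a difference of -0.54 (standard error 0.22, limma adjusted p = 0.305). Insrr (-0.20, under 4), Igfbpl1 (-0.78, standard error 0.39) and Igfbp6 (-0.32, standard error 0.18) followed, at adjusted p-values of 0.347 to 0.420 from limma.

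Proteases that cleave binding proteins, and inhibitors of such proteases, gave 4 higher and 1 lower gene at an unadjusted p under 0.05 among 11. Their share was 45.5%, against 18.5% of all genes. Mmp2 (0.83, standard error 0.22), the lysosomal protease Ctsd (0.86, standard error 0.27), Htra1 (0.33, standard error 0.12) and Htra3 (0.59, standard error 0.22) were higher on average, at limma adjusted p-values of 0.187 to 0.275, with Mmp2 and Htra3 under 4. Stc2, which inhibits the protease PAPPA and was named after its value was seen, had the largest difference of this list, -1.50 (standard error 0.56, limma adjusted p = 0.278). It read 6.36, 7.64, 7.35 and 9.41 in Si deplete and 9.42, 9.15, 9.75 and 8.45 in Si replete kidneys, so that 3 Si deplete kidneys lay below every Si replete one and replicate 4 did not.

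Downstream of the IGF receptor, 3 genes of PI3K, AKT, FOXO and mTOR were higher and 3 lower at an unadjusted p under 0.05 among 21. Their share was 28.6%, against 18.5% of all genes, and the median difference of the list was 0.01. Pik3r1, the regulatory subunit of PI3K, read 8.67, 6.41, 5.98 and 6.48 in Si deplete and 5.37, 5.30, 5.37 and 5.67 in Si replete kidneys, a difference of 1.46 (standard error 0.50, limma adjusted p = 0.247), with Si deplete replicate 1 far above the rest. Akt1 differed by 0.39 (standard error 0.11), Foxo4 by -0.33 (standard error 0.12) and the mTOR inhibitor Deptor by -0.25 (standard error 0.10), at limma adjusted p-values of 0.195 to 0.291. Among 14 receptor substrates and adaptors the differences were small, with Rack1 (0.20), Gigyf1 (0.29), Irs1 (-0.21, under 4) and Crk (0.10) at the smallest p-values (limma, adjusted p of 0.326 to 0.520).

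**Figure D5:**
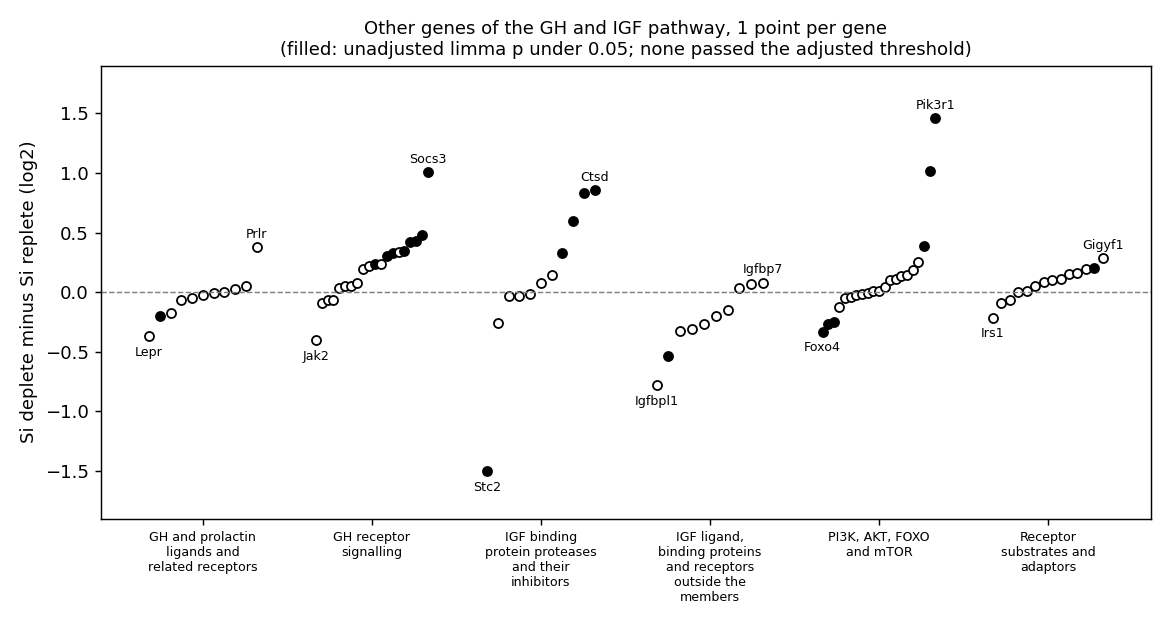
Difference between diets (vertical axis, Si deplete minus Si replete on the log2 scale) for 87 other genes of the pathway in 6 lists (horizontal axis), 1 point per gene; filled points have an unadjusted limma p under 0.05. None passed the adjusted threshold, Pik3r1 (1.46) and Stc2 (-1.50) lie farthest from zero, and all filled points of growth hormone receptor signalling lie above it.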

How the data were processed

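RNA of whole left kidneys from 8 rats, 4 on each diet, was measured on Affymetrix rat genome arrays. The authors deposited log2 levels made by gcRMA, with background by GC content, normalization across arrays and an m-estimator summary of each probe set (GCRMA 2.36.0 in the submitters' processing notes). Of 31099 probe sets, 57 controls were left out.

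Diets were compared with limma 3.58.1 in R 4.3.3 (Si deplete minus Si replete, Benjamini-Hochberg over 31042 probe sets, threshold 0.1 as in the study's methods), which was tested on simulated data. No probe set was filtered by level. All 10 symbols matched RefSeq (GRCr8) by Entrez ID. The members and lists were chosen with earlier results of these data known. Named beside the members were up to 4 genes of each of 6 lists by smallest p, and the 5 genes nearest to Ghr. In the study, rats were killed singly, a rat from every group on a given day, and the labels do not say whether the replicate numbers follow these days. With the diet means removed, same-numbered arrays of the diets correlated at -0.09 to 0.09. This does not settle whether they are pairs, and the numbers were not read as such. With the replicate number as a block, the standard error of the Igf1 probe set 1388469_at was 0.12 instead of 0.28. The number of arrays limits the precision. Each array is a separate rat. Alternatives were another prior or weights, a filter on low levels, further scaling, the replicate number as a block, a stricter threshold, Storey's q-value, averaging the probe sets of each gene, and each kidney left out.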

Additional observations from a re-analysis of the deposited data

Results flagged for a closer look

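Each group of 4 kidneys was searched, on each of the 20 probe sets, for a kidney far from the others by the gap to its nearest neighbour over the range of the group. Of 40 groups, 2 held such a kidney, and chance passes about 5% of groups. On the Igfbp5 probe set 1396152_s_at, Si deplete replicate 1 lay at 5.72, with the nearest other Si deplete kidney at 7.07. On the Igfals probe set, Si replete replicate 4 lay at 8.38, with the nearest other Si replete kidney at 6.89.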

How the results depend on the processing

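The difference of Ghr on its brighter probe set was -0.90 to -0.75 over all settings. At an adjusted p under 0.1 (limma), 1 of the 20 probe sets was lower. This count was 0 at an adjusted p under 0.05, where 7 lower and 1 higher had an unadjusted p under 0.05. It was 2 with the replicate block, which added the Igf1 probe set 1388469_at. With single kidneys left out it was 0 to 1, and 0 without Si deplete replicate 2 or 4 or any Si replete kidney, where 6 to 8 lower and 1 to 2 higher had an unadjusted p under 0.05. Of other pathway genes, 0 were higher with all kidneys and 0 to 1 with single kidneys left out, the 1 being Mmp2 without Si deplete replicate 3. The count of members called lower stayed 1 without Si deplete replicate 1 or 3, which also left fewer kidneys. Apart from the stricter threshold, the cause of these changes was not tested. The balance of Ghr against the median of the other members was -0.84, and -0.92 to -0.71 over the settings. Intensity trend, robust prior, array weights, the filter on means under 4, both normalizations and Storey's q-value changed no count of members or other pathway genes called. With the diet means removed, each array was compared with the 4 arrays of the other diet, 1 of which bore its own replicate number. The same-numbered array was the best match in 4 of 8 cases, which does not settle whether the numbers are pairs. Over all probe sets, 12 were lower and 35 higher; these counts were 19 and 58 with means under 4 left out, 19 and 33 with medians subtracted, 14 and 90 with the replicate block, 51 and 121 by Storey's q-value, 0 and 0 at 0.05, and 0 to 67 and 0 to 235 with single kidneys left out.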
